A study of Mus musculus with 4 samples.

Results

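The genes described here are 75 genes of the primary cilium, of the transport system that builds it and of the centrosome that anchors it. A rule on gene symbols chose them, and it was set with earlier results of these data known. It took the numbered Ift, Bbs, Nphp, Tctn and Cep genes and the dynein and kinesin motors of the cilium. It also took a set of cilium proteins of the sonic hedgehog (SHH) pathway and the transition zone. The 75 genes were read by 133 probe sets, out of 24679 probe sets for 13320 genes that carried 1 gene symbol each. The material was total RNA from 4 mouse cerebellar tumors of the genotype Chd7-het on a mixed CD1xC57BL/6 background, hybridized to 1 Affymetrix mouse expression array per tumor. The tumors are called 1, 2, 4 and 5 after their sample titles. All 4 share the one genotype, and the labels used here give no tumor of another genotype, no normal cerebellum, no driver of the tumors, and neither age nor sex of the mice, so the comparisons below set each tumor against the other 3 and say nothing of an effect of Chd7. Chd7 itself, a chromatin remodeller, had log2 signals of 8.77, 8.66, 8.48 and 8.60 in tumors 1, 2, 4 and 5, which checks no label because every tumor has the same genotype.

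The primary cilium is a solitary antenna of the cell membrane, built on the older centriole of a cell that is not dividing and taken down before mitosis. Its parts are carried by intraflagellar transport (IFT): the IFT-B complex moves outwards with kinesin-2, the IFT-A complex returns with dynein-2, and the BBSome exports membrane proteins. In granule cell progenitors of the cerebellum the cilium is the place where SHH signalling is read, since Smoothened and the Gli factors are processed there, and tumors of this lineage driven through Smoothened depend on it.

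Many cilium genes carry the X-box, the binding motif of the RFX transcription factors, near their start site, so the RefSeq promoter windows of GRCm38.p6 (250 bases before to 50 after each start) were searched on both strands for a 14-letter pattern made of GTNNCC, 3 free bases and GNAAC. Of the 75 genes, 67 had a promoter entry, with 76 windows in all, and 13 of these windows held a match, or 17.1%. The same pattern lay in 2.17% of all 32851 promoter windows and in 2.72% of those of the genes tested for expression. A stricter form, made of GTTNCC, 2 free bases and GGNAAC, whose matches are all matches of the first, lay in 4 of the 76 windows (5.26%) and in 0.451% of all windows. By role, 4 of the 7 transition zone genes with a window, 3 of 8 BBSome genes, 2 of 9 IFT-B genes and 4 of 27 centrosomal Cep genes held a match. None did among the windows of 5 IFT-A, 4 motor and 6 SHH-linked genes or of Arl3, which says only that these letters are not in those windows. A match is a description of the sequence and not a shown binding site. The sites of 8 genes follow on the gene's own strand, with the 14 bases of the match in capitals, because these genes either hold the stricter pattern or recur in the results. The stricter match of Tctn1 and a further match in Ift22 are not printed. In Bbs1 and Ift57 the pattern reads on the opposite strand, so the printed capitals are its reverse complement.
Bbs1: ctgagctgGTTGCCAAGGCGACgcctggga
Bbs4: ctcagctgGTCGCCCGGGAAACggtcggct
Bbs7: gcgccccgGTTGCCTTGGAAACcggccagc
Ift22: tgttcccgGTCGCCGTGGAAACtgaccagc
Ift57: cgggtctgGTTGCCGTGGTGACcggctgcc
Mks1: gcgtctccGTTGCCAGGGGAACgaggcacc
Nphp4: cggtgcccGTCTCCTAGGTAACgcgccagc
Cep19: agccttctGTTGCCTTGGGAACgatcctcg

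In GRCm38.p6 these windows are chr19:4906605-4906634 for Bbs1, chr9:59353464-59353493 for Bbs4 and chr3:36613489-36613518 for Bbs7, all on the minus strand. On the plus strand they are chr5:136908109-136908138 for Ift22, chr16:49699199-49699228 for Ift57, chr11:87853183-87853212 for Mks1, chr4:152477903-152477932 for Nphp4 and chr16:32099803-32099832 for Cep19. The centre of the match lay 17 bases before the annotated start in Mks1, 26 before it in Ift22 and 8 after it in Bbs1. Of 15 sites in the 13 genes, 11 lay within 100 bases of the start.

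Most of the cilium genes gave a signal above the floor in every tumor. The floor, the level below which MAS5 signals were treated as not measured, was 5.12 on the log2 scale, and all levels below are log2 signals. Counting each gene by its brightest probe set, 64 of 75 genes lay above the floor in all 4 tumors and 5 lay below it in all 4: Bbs10, Cep135, Cep250, Tctn1 and Tctn2. The other 6 crossed it. Of the 133 probe sets, 85 were above the floor in all tumors and 33 were below it in all. A filter on the mean signal (5.87) left 52 of the 75 genes for testing, all of them above the floor in every tumor. The 23 genes left out by it are described by their levels. The signal of a probe set also depends on its oligonucleotides, so levels of different genes were not ranked.

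By the brightest probe set of each gene, none of the 52 tested cilium genes differed between any tumors by 2-fold or more. The test asked for 2-fold as well as a small p, so none of them could pass it in any tumor. Each tumor was set against the mean of the other 3 with limma over 8498 genes, and passing meant both 2-fold or more and an adjusted p (Benjamini-Hochberg) below 0.05. In tumor 1, 0 of 52 cilium genes passed, against 1.29% of all genes tested. In tumors 2, 4 and 5, 0 of 52 passed in each, where 0.0% of all genes did. At an unadjusted p under 0.05 the counts were 5 of 52 in tumor 1 (11.2% of all genes), 2 in tumor 2 (5.84%), 0 in tumor 4 (0.553%) and 1 in tumor 5 (3.6%). The smallest adjusted p of any member was 0.276, that of Cep55 in tumor 1. Leaving out a tumor moved these counts: without tumor 2, 9 of 52 cilium genes had an unadjusted p under 0.05 in tumor 1 (23.5% of all genes), and without tumor 4 there were 2 (8.01%) and without tumor 5 there were 3 (11.5%). Without tumor 1, 7 of 53 did in tumor 2 (21.5%) and 4 of 53 in tumor 5 (7.01%). Cep170 then had an adjusted p = 0.0252 in tumor 1 without tumor 2 (difference 0.64) and an adjusted p = 0.0286 in tumor 2 without tumor 1 (difference 0.64), both under 2-fold. No other member had an adjusted p under 0.05 with a tumor left out, where up to 7.12% of all genes did. The lone tumor is assumed to vary like the other 3 in this fit, and nothing shows whether tumor numbers also mark litters or batches.

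Between the highest and the lowest tumor, 0 of 52 cilium genes reached 2-fold, against 5.15% of all genes tested. The widest span was that of Kif3c, at 0.95 on the log2 scale or 1.93-fold. Likewise 0 of 52 reached 2-fold in any of the 6 pairs of tumors, while the share of all genes was 2.52% for tumor 1 against tumor 2, 2.45% for 1 against 4, 3.13% for 1 against 5, 0.424% for 2 against 4, 1.27% for 2 against 5 and 0.459% for 4 against 5. The median SD of the 52 genes over the 4 tumors was 0.17, the same as that of all genes tested (0.17), and 0.18 in 2946 genes of like signal. The typical cilium gene thus varied as much as the typical gene. By their brightest probe sets no members had an SD above 0.45, but the dimmer probe set of Kif3c had an SD of 0.52. Beside 5.15% of all genes at 2-fold, 0 of 52 is not read as a trait of the set. The intervals still leave room: the outermost 95% bound of any member's difference was 1.31, that of Ofd1 in tumor 2, so differences somewhat past 2-fold are not excluded for single genes.

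Over the whole set the shifts were small. Tumor 1 had 17 of 52 genes higher and 35 lower than the mean of the other 3 (43.7% and 56.3% of all genes), with a median difference of -0.098 where the median of all genes was -0.036. Tumor 2 had 32 higher and 20 lower (47.2% and 52.8% of all genes), with a median of 0.074 where that of all genes was -0.017. Tumor 4 had 21 higher and 31 lower (50.8% and 49.2%), with medians of -0.057 and 0.0037, and tumor 5 had 37 higher and 15 lower (56.9% and 43.1%), with medians of 0.076 and 0.038. The highest value of a cilium gene lay in tumor 1 for 7, tumor 2 for 21, tumor 4 for 4 and tumor 5 for 20 genes, while 23.4%, 26.4%, 19.1% and 30.9% of all genes had theirs there. The lowest lay in tumor 1 for 25, tumor 2 for 8, tumor 4 for 12 and tumor 5 for 7 genes, against 31.3%, 29.1%, 17.3% and 22.1% of all genes. Tumor 1 thus held more of the lowest values than any other tumor, and tumors 2 and 5 most of the highest. Centring each array on its median turned the sign of the tumor 4 median, to 0.013. Under that centring 38 of 52 cilium genes were lower in tumor 1, beside 70.7% of all genes, and 43 of 52 were higher in tumor 5, beside 66.2%. Without tumor 1, the cilium gene medians were 0.037 in tumor 2, -0.099 in tumor 4 and 0.029 in tumor 5. The tumor 4 median was -0.021 without tumor 2 and -0.032 without tumor 5, and the tumor 5 median was 0.13 without tumor 2.

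Without the filter on the mean signal, 0 of 75 cilium genes passed in any tumor, where 0.736%, 0.00751%, 0.0375% and 0.045% of all 13320 genes did in tumors 1, 2, 4 and 5. At an unadjusted p under 0.05 the limma fit then gave 8, 6, 0 and 6 cilium genes, and 11.1%, 6.02%, 1.97% and 3.97% of all genes. Mks1 in tumor 5 had a difference of 0.60 there with an adjusted p = 0.0331, but 2 of the other 3 tumors were set to the floor, so their spread was close to 0.

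**Figure D1:**
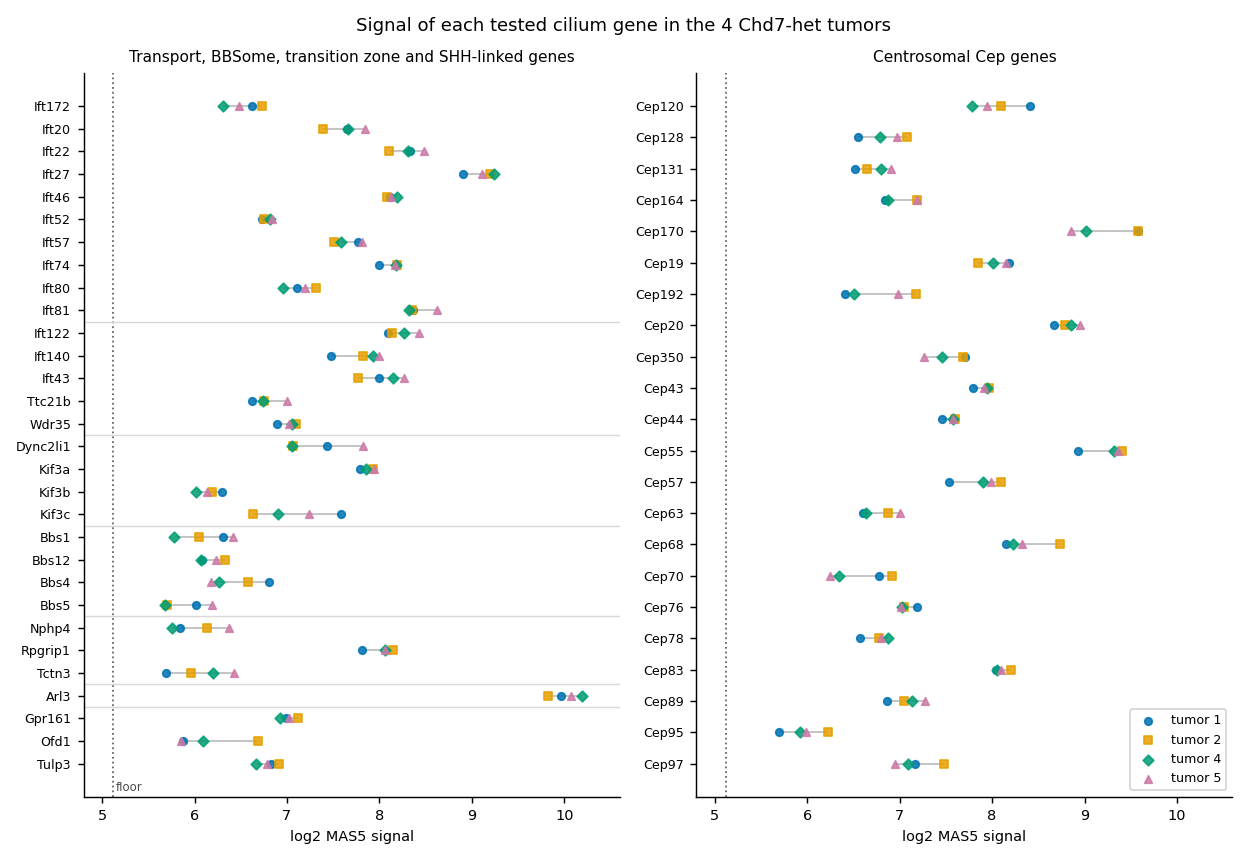
Log2 MAS5 signal (x axis) of the 52 tested cilium genes (rows, brightest probe set) in the 4 Chd7-het tumors, 1 marker per tumor, with a grey bar from the lowest to the highest tumor and the floor as a dotted line. In the left panel, lines part IFT-B, IFT-A, motors, BBSome, transition zone, Arl3 and SHH-linked genes. Kif3c has the widest bar, 0.95, and Ift52 the narrowest, 0.11.

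**Figure D2:**
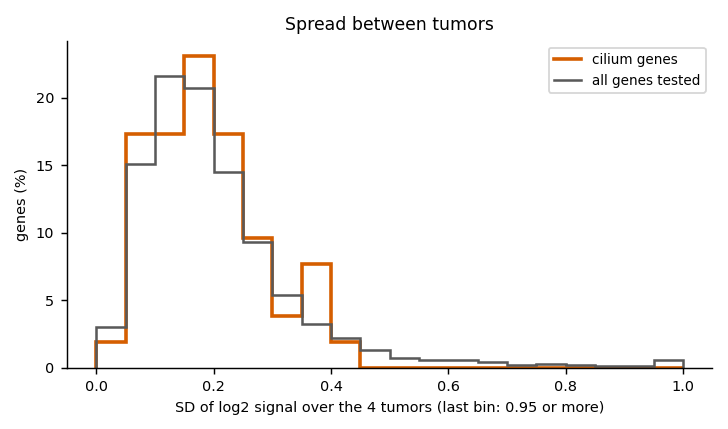
Share of genes (y axis, percent) by the SD of the log2 signal over the 4 tumors (x axis, bins of 0.05), for the 52 cilium genes and all 8498 genes tested. Both medians are 0.17 over the genes of each set. Each gene is shown by its brightest probe set, and by this measure the bins above 0.45 hold other genes but no cilium gene.

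The IFT-B genes, whose complex carries tubulin and other cargo to the ciliary tip, spanned between 0.11 and 0.45 from the lowest to the highest tumor. All 11 were above the floor in every tumor and 10 were tested. Ift52, a core subunit, read 6.73, 6.75, 6.82 and 6.84 in tumors 1, 2, 4 and 5, and Ift46, its partner in the core, read 8.11, 8.08, 8.19 and 8.12. These spans of 0.11 for each were the narrowest among the tested genes. Ift20, a subunit that also sits at the Golgi, spanned most, with 7.85 in tumor 5, against 7.65, 7.39 and 7.66 in tumors 1, 2 and 4. Ift22, a small GTPase-like subunit, was likewise highest in tumor 5 and lowest in tumor 2, with 8.49 in tumor 5 and 8.33, 8.11 and 8.31 in tumors 1, 2 and 4. Ift57 read 7.81 in tumor 5, against 7.77, 7.51 and 7.58. Ift81, which binds tubulin together with Ift74, read 8.63 in tumor 5, against 8.36, 8.35 and 8.32 in tumors 1, 2 and 4, and its other probe set past the filter was highest in tumor 5 as well. Ift74 itself read 7.99 in tumor 1, against 8.19, 8.18 and 8.17 in tumors 2, 4 and 5. Ift88, the subunit whose loss abolishes cilia in mice, missed the filter but was above the floor throughout, at 5.55, 5.97, 5.71 and 5.87 in tumors 1, 2, 4 and 5. Ift27, Ift80 and Ift172 spanned 0.34, 0.35 and 0.42.

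The IFT-A genes, needed for the return journey and for the entry of membrane proteins, were all higher in tumor 5 than the mean of the other 3 (5 of 5 tested, where 56.9% of all genes were), with a median difference of 0.27. All 5 were also lower in tumor 1 (56.3% of all genes were), with a median of -0.19. There, 4 of the 5 had their lowest value (31.3% of all genes did). Ift122, a core subunit, read 8.43 in tumor 5, against 8.09, 8.13 and 8.27 in tumors 1, 2 and 4. Ift140, also of the core, read 8.0 in tumor 5 and 7.48, 7.83 and 7.93 in the others. Its lowest value, in tumor 1, lay 0.44 below the mean of the other 3 (SE 0.17, unadjusted p = 0.0345, adjusted p = 0.371). Ttc21b, known in human ciliopathies, read 7.0 in tumor 5 and 6.62, 6.76 and 6.74 in the rest, and Ift43 read 8.26 in tumor 5 and 7.99, 7.77 and 8.14 in the rest. Wdr35 was nearly level, at 6.90, 7.10, 7.05 and 7.02 in tumors 1, 2, 4 and 5. Its difference in tumor 5, 0.0088, was the smallest of the 5. Wdr19 was close to the floor, at 5.36 in tumor 5 and between 5.08 and 5.17 elsewhere. No IFT-A gene passed the test in any tumor. With IFT-B added, 12 of 15 genes were higher in tumor 5, with a median of 0.19, and without tumor 1 the count was 11 of 16 and the median 0.093.

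The motor genes held the widest span. Kif3c, a kinesin-2 subunit that pairs with Kif3a in neurons, read 7.58 in tumor 1, against 6.64, 6.90 and 7.23 in tumors 2, 4 and 5. Tumor 1 was 1.58-fold above the mean of the others (log2 difference 0.66, SE 0.25, adjusted p = 0.345), which did not pass. In tumor 2 the same gene lay at -0.60 (SE 0.28, adjusted p = 0.795). A second, dimmer probe set of Kif3c was also highest in tumor 1, at 6.96, but lowest in tumor 4, at 5.70, with 6.35 in tumor 2 and 6.22 in tumor 5. Its span of 1.26 exceeds 2-fold and was the one such span among the 70 member probe sets past the filter. Neuronal marker genes, described below, were high in the same tumor.

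Kif3a, the subunit common to the kinesin-2 motors, was level, at 7.79, 7.94, 7.85 and 7.94 in tumors 1, 2, 4 and 5. Its 4 probe sets split: the dimmer pair were lowest in tumor 5 (6.58 and 6.40), where the brightest was highest. Kif3b read 6.29, 6.18, 6.02 and 6.13. Dync2li1, a light intermediate chain of dynein-2, read 7.82 in tumor 5, against 7.43, 7.06 and 7.05 in tumors 1, 2 and 4, a difference of 0.64 or 1.56-fold (SE 0.23, unadjusted p = 0.0258, adjusted p = 0.957). Dync2h1, the heavy chain, which missed the filter, was highest in tumor 2 instead, at 6.07, against 5.62, 5.55 and 5.69 in tumors 1, 4 and 5.

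**Figure D3:**
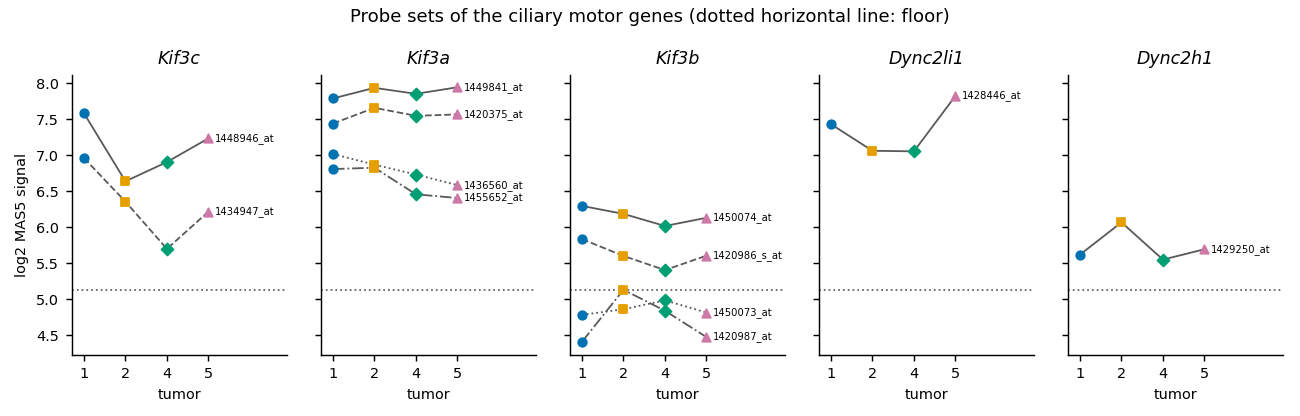
Log2 MAS5 signal (y axis) of every probe set of 5 motor genes in tumors 1, 2, 4 and 5 (x axis). Lines join the values of a probe set and imply no order of the tumors, and the dotted line is the floor. Both Kif3c probe sets are highest in tumor 1, at 7.58 and 6.96, and Dync2li1 is highest in tumor 5, at 7.82.

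The BBSome genes lay lower in tumor 4 in all 4 tested cases (49.2% of all genes did; median -0.27), and none passed. With probe sets of the _x_at and _s_at kinds left out, 3 of 4 did, and with no filter on the mean, 6 of 8 did, with a median of -0.14. By their brightest probe sets, all 4 tested motor genes (median -0.22) and all 3 tested SHH-linked genes (-0.12) were lower in tumor 4 too. So were 14 of 22 Cep genes. In contrast, 4 of 5 IFT-A, 6 of 10 IFT-B and 2 of 3 transition zone genes were higher there (50.8% of all genes were). Bbs1, a cargo-binding subunit, read 5.78 in tumor 4, against 6.31, 6.04 and 6.41 in tumors 1, 2 and 5 (difference -0.48, SE 0.28, adjusted p = 1.00). Bbs5, a lipid-binding subunit, read 5.68 in tumor 4 and 6.01, 5.70 and 6.19 in the others. Bbs4, which links the BBSome to centriolar satellites, read 6.81, 6.58, 6.26 and 6.18 in tumors 1, 2, 4 and 5, and its second probe set past the filter shared its highest and its lowest tumor. In tumor 1 Bbs4 lay 0.47 above the mean of the other 3 (SE 0.24, adjusted p = 0.533). Bbs12, a chaperonin-like assembly factor, was level, between 6.07 and 6.33. Bbs2, Bbs7 and Bbs9, further subunits, missed the filter at levels between 5.15 and 5.89.

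Genes of the transition zone, the gate at the ciliary base, were often dim. Of 7 genes, 3 were tested. All 3 lay lower in tumor 1 (median -0.28; 56.3% of all genes did) and higher in tumor 5 (median 0.47; 56.9% of all genes did), again with none passing. With no filter on the mean, the 7 genes had a median of 0.074 in tumor 5. Tctn3, a tectonic of the gate complex, read 5.69 in tumor 1, against 5.96, 6.20 and 6.42 in tumors 2, 4 and 5 (difference -0.51, SE 0.25, adjusted p = 0.521). In tumor 5 the same gene lay at 0.47 (SE 0.28, adjusted p = 0.957). Nphp4, a nephronophthisis gene, read 6.37 in tumor 5, against 5.84, 6.13 and 5.75 in tumors 1, 2 and 4 (difference 0.47, SE 0.26, adjusted p = 0.957). Rpgrip1, best known from the photoreceptor cilium, read 7.81 in tumor 1, against 8.15, 8.07 and 8.06 in tumors 2, 4 and 5. Cep290, which anchors the gate to the microtubules, missed the filter and read 6.04 in tumor 2, against 5.66, 5.22 and 5.71 in tumors 1, 4 and 5. Mks1 read 5.74 in tumor 5 and 4.93, 5.16 and 4.61 in tumors 1, 2 and 4, so it cleared the floor in 2 tumors.

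Among the SHH-linked cilium genes, Ofd1 stood out in tumor 2. Ofd1, a protein of the distal centriole and of satellites, read 6.68 in tumor 2, against 5.87, 6.09 and 5.85 in tumors 1, 4 and 5. The difference of 0.75, or 1.68-fold (SE 0.23, 95% interval 0.18 to 1.31), was the largest of any member in any tumor, with an unadjusted p = 0.0179 and an adjusted p = 0.795. Gpr161, the ciliary receptor that holds the pathway off through cAMP, was nearly level, at 6.99, 7.11, 6.93 and 7.02 in tumors 1, 2, 4 and 5. Tulp3, the adaptor that brings Gpr161 into the cilium with IFT-A, read 6.83, 6.91, 6.66 and 6.79. Kif7, the kinesin of the ciliary tip, missed the filter at 5.78, 5.88, 5.58 and 5.72, and Evc and Evc2, which relay the signal of Smoothened, lay between 5.5 and 5.99. Arl3, the GTPase that releases lipid-modified cargo inside the cilium, read 10.19 in tumor 4, against 9.96, 9.82 and 10.07 in tumors 1, 2 and 5. Arl13b and Arl6, which the rule also names, were not analysed here.

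The Cep genes, a family named for the centrosome and not for a shared function, were mostly lower in tumor 1 and higher in tumor 2. Of 22 tested, 16 lay below the mean of the others in tumor 1 (56.3% of all genes did; median difference -0.21), and 15 had their lowest value there (31.3% of all genes did). With each array centred on its median the count was again 16 of 22, beside 70.7% of all genes. In tumor 2, 17 of 22 were higher (47.2% of all genes were), with a median of 0.17, and 12 had their highest value there (26.4% of all genes did). No Cep gene passed in either tumor. In the same tumor 1, all 21 tested genes of a list of S, G2 and M phase lay lower, by a median of -0.42. The part of dividing cells in the Cep values was not tested. In bulk tissue, fewer cells of a type and less RNA per cell cannot be told apart.

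Several Cep genes had their lowest value in tumor 1, their highest in tumor 2, or both. Cep192, a scaffold of the pericentriolar material, read 7.18 in tumor 2, against 6.41, 6.51 and 6.98 in tumors 1, 4 and 5 (difference 0.55, SE 0.28, adjusted p = 0.795). Cep152, which with Cep192 brings Plk4 to the centriole, missed the filter and read 5.99 in tumor 2, against 5.35, 5.27 and 5.83 in tumors 1, 4 and 5. Cep63, the partner of Cep152, read 6.6 in tumor 1 and 6.88, 6.63 and 7.01 in the others. Cep57 read 7.53 in tumor 1, against 8.10, 7.91 and 7.98 in tumors 2, 4 and 5 (difference -0.46, SE 0.17, unadjusted p = 0.0273, adjusted p = 0.328). Cep55, which acts in the last cut between daughter cells, read 8.93 in tumor 1, against 9.41, 9.32 and 9.36 in the others (difference -0.43, SE 0.15, unadjusted p = 0.0195, adjusted p = 0.276). Its dimmer probe set had the same highest and lowest tumor. Cep68, of the linker between centrioles, read 8.73 in tumor 2 and 8.15, 8.23 and 8.33 in tumors 1, 4 and 5 (difference 0.49, SE 0.15, unadjusted p = 0.0181, adjusted p = 0.795).

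Cep120 had its highest value in tumor 1, and Cep170 and Cep70, both highest in tumor 2, had their lowest in tumor 5. Cep120, which acts in centriole elongation and in neural progenitors, read 8.41 in tumor 1, against 8.09, 7.79 and 7.95 in tumors 2, 4 and 5 (difference 0.46, SE 0.18, unadjusted p = 0.0332, adjusted p = 0.363). Cep170, of the subdistal appendages, read 8.85 in tumor 5, against 9.57, 9.58 and 9.02 in tumors 1, 2 and 4 (difference -0.53, SE 0.26, adjusted p = 0.957). Its second probe set spanned 0.21 where the first spanned 0.72, and was lowest in tumor 4 instead, at 7.95, with 8.01 in tumor 5. Cep70 read 6.25 in tumor 5 and 6.78, 6.91 and 6.34 in tumors 1, 2 and 4 (difference -0.43, SE 0.28, adjusted p = 0.957).

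The Cep proteins of the appendages that dock the cilium to the membrane spanned between 0.16 and 0.42 by their brightest probe sets. Cep164 read 6.84, 7.18, 6.87 and 7.18 in tumors 1, 2, 4 and 5, Cep83 read 8.04, 8.20, 8.05 and 8.09, and Cep89 read 6.86, 7.05, 7.14 and 7.28. A dimmer probe set of Cep83 past the filter spanned 0.43 and was highest in tumor 1 (6.32) and lowest in tumor 2 (5.89), the reverse of the brightest. That of Cep89 spanned 0.44, with the same lowest but another highest tumor. Cep19, which brings the GTPase Rabl2 to the ciliary base, read 8.18, 7.84, 8.01 and 8.15. Cep44, with a span of 0.14, was the narrowest of the family, and Cep20, Cep43, Cep76, Cep78, Cep95, Cep97, Cep128 and Cep350 spanned between 0.17 and 0.54. Cep131, a satellite protein, read 6.51, 6.65, 6.79 and 6.90. Of the Cep genes below the filter, Cep41, a regulator of tubulin glutamylation, was highest in tumor 5 at 5.94 and read 5.31, 5.63 and 5.27 in tumors 1, 2 and 4, and Cep85 lay between 5.61 and 5.83. Cep112, Cep126, Cep162 and Cep295 cleared the floor in some tumors only.

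**Figure D4:**
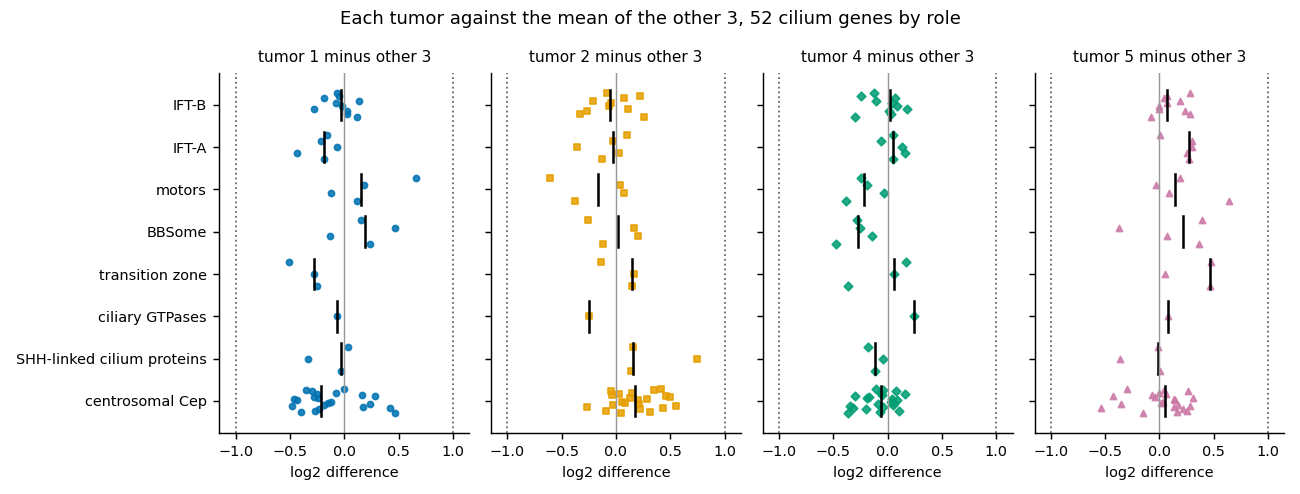
Log2 signal of each tumor minus the mean of the other 3 (x axis) for the 52 tested cilium genes by role (rows), 1 panel per tumor. Points are genes, black bars are group medians and dotted lines mark 2-fold. No point reaches a dotted line, IFT-A genes lie right of 0 in tumor 5 (median 0.27), and Cep genes lie mostly left of it in tumor 1 (median -0.21) and right of it in tumor 2 (0.17).

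The 8 tested genes with an X-box match had a median of 0.079 in tumor 1, and the 36 with a promoter window and no match had -0.17. There, 5 of 8 and 8 of 36 were higher (43.7% of all genes). In tumor 2 the medians were -0.032 with a match and 0.093 without (4 of 8 and 24 of 36 higher, 47.2% of all genes). In tumor 4 they were -0.088 and -0.0029 (2 of 8 and 18 of 36 higher, 50.8% of all genes). In tumor 5 they were 0.16 and 0.071 (6 of 8 and 26 of 36 higher, 56.9% of all genes). The median of the genes with a match thus lay above that of the others in tumors 1 and 5 and below it in tumors 2 and 4. Some counts, such as 4 of 8 in tumor 2 and 18 of 36 in tumor 4, were near the share of all genes. The genes with and without a match also differ in role, and the difference was not tested.

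Where a gene had more than 1 probe set past the filter, these could be compared. This held for 15 genes. In 9 of them all such probe sets had the same highest tumor and in 7 the same lowest, and in none did probe sets go opposite ways by 2-fold or more between the same tumors. Bbs4, Cep128, Cep55 and Ift81 had both in common.

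No gene of the 7 lists of cilium and SHH pathway genes outside the symbol rule passed the test in any tumor. Of 16 tested genes of IFT, BBSome and motor proteins with other names, 14 were higher in tumor 5 (56.9% of all genes were), with a median of 0.23. With the mean over probe sets the count was 11 of 16, with a median of 0.15 (55.4% of all genes), and at the level of probe sets it was 16 of 24, with a median of 0.11 (54.5%). Ttc26, an IFT-B subunit, read 7.01 in tumor 5, against 6.32, 6.33 and 6.51 in tumors 1, 2 and 4 (difference 0.62, adjusted p = 0.957), and Ttc30a1, another, read 7.56 and 7.22, 7.07 and 7.22. In tumor 2, 13 of the 16 lay lower (median -0.19; 52.8% of all genes). Kifap3, the third chain of kinesin-2, read 9.31 in tumor 1, against 8.89, 9.0 and 8.94 in tumors 2, 4 and 5.

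Of 11 tested transition zone genes with other names, 10 were higher in tumor 5 (median 0.28; 56.9% of all genes) and 10 lower in tumor 1 (median -0.21; 56.3%). Tmem107, a membrane protein of the gate known from mouse SHH signalling, read 10.36 in tumor 5, against 9.32, 9.37 and 9.80 in tumors 1, 2 and 4 (difference 0.86, adjusted p = 0.957). B9d1 read 7.86 in tumor 5 and 7.49, 7.11 and 7.59 in the others. A match to the X-box pattern lay in 5 of the 19 promoter windows of this list (26.3%) and in 1 of 17 of the other IFT list (5.88%).

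Several markers of the choroid plexus, an epithelium that bears cilia, had their highest value in tumor 5, and the list did not move as one. Ttr, the transthyretin gene of that epithelium, read 12.16 in tumor 5, against 3.12, 2.14 and 5.70 in tumors 1, 2 and 4. Folr1 read 6.14 and Kcnj13 6.17 in tumor 5, and both were below the floor in the other 3. The summed linear signal of the 8 choroid plexus genes on the table was 5864 in tumor 5, against 1196, 886 and 748 in tumors 1, 2 and 4, and most of the tumor 5 sum was Ttr. The list had 2 members past the filter. Clic6 read 8.73 in tumor 5, against 9.15, 7.11 and 6.29, and Otx2 read 9.33, against 9.18, 9.46 and 9.16 (difference 0.066). Aqp1 and Cldn2 were below the floor in every tumor. Genes of motile cilia were dim: of 11 on the table, 10 were below the floor in all 4 tumors. Among these was Foxj1, the master regulator of motile cilia, at 4.64 in tumor 5 and between 3.58 and 4.00 in the others. The eleventh, Rsph9, read 5.43 in tumor 5 and 5.64 in tumor 4. The part of choroid plexus RNA in the IFT and transition zone values of tumor 5 was not tested.

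Among the regulators, the 5 RFX genes tested and Myb were all higher in tumor 2 (6 of 6, with 47.2% of all genes), with a median of 0.39. In tumor 5, 5 of the 6 were lower (43.1% of all genes), with a median of -0.10. Rfx3, a factor of ciliogenesis, read 8.99 in tumor 2, against 8.67, 8.34 and 8.57 in tumors 1, 4 and 5, and Rfx5, known for MHC class II genes and not for cilia, read 7.58 against 7.02, 6.84 and 6.72. Rfx1 read 6.51 in tumor 2, against 5.85, 6.18 and 5.92. In that tumor 13 of 16 IFT, BBSome and motor genes with other names were lower (52.8% of all genes). Of the 52 cilium genes 32 were higher there, and of 22 Cep genes 17 (47.2% of all genes). A link of the RFX genes to these counts was not tested. Genes of cilium disassembly lay lower in tumor 1 in 6 of 7 cases (56.3% of all genes; median -0.44). Aurka, a mitotic kinase that starts disassembly, read 8.17 in tumor 1, against 8.89, 8.81 and 8.85 in tumors 2, 4 and 5 (difference -0.68, adjusted p = 0.0801), and Nek2 read 8.64, against 9.27, 9.15 and 9.35. The list shares its mitotic kinases with dividing cells.

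Basal body, satellite and vesicle genes were split, with 10 of 16 lower in tumor 5 (43.1% of all genes; median -0.074) and 11 of 16 higher in tumor 2 (47.2%; median 0.062), among them Pcm1, the main protein of centriolar satellites, at 8.97 in tumor 2, against 8.39, 8.35 and 8.13 in tumors 1, 4 and 5 (difference 0.69, adjusted p = 0.795). Mib1, a ubiquitin ligase of the satellites, read 9.67 in tumor 2, against 9.25, 9.17 and 9.07. The 8 tested genes of lipid-modified cargo and ciliary signalling had medians between -0.10 and 0.052 in the 4 tumors. Of 17 tested SHH pathway genes, 12 lay lower in tumor 1 (median -0.22; 56.3% of all genes), 12 higher in tumor 2 (median 0.090; 47.2%) and 12 higher in tumor 5 (median 0.13; 56.9%). Hhip, an inhibitor and target of the pathway, read 6.72 in tumor 1, against 6.08, 5.68 and 6.06 in tumors 2, 4 and 5 (difference 0.78, adjusted p = 0.230), and Sfrp1, a Wnt antagonist, read 10.11, against 10.67, 10.82 and 10.66 (difference -0.61, adjusted p = 0.184). Gli2, a factor processed in the cilium, read 9.73 in tumor 2, against 8.93, 9.11 and 9.01 in tumors 1, 4 and 5 (difference 0.71, adjusted p = 0.795).

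**Figure D5:**
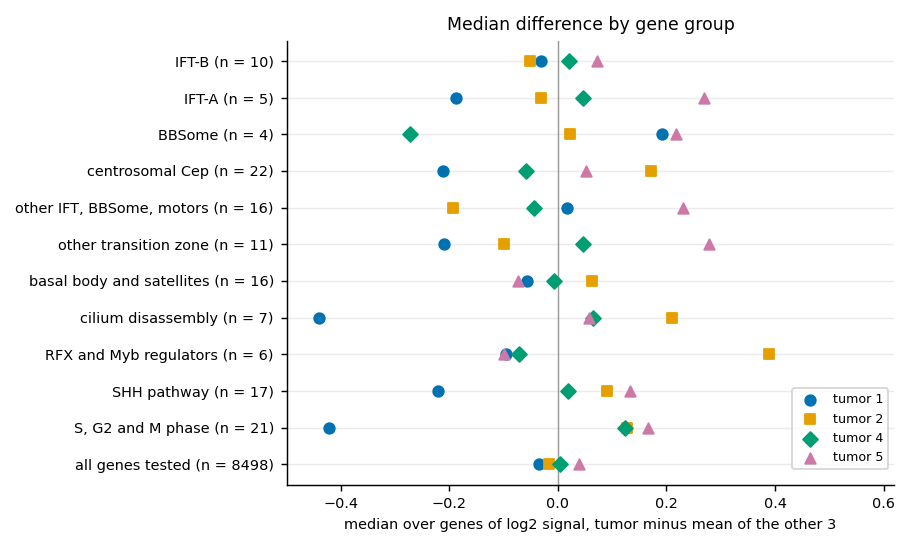
Median over genes of the log2 signal of a tumor minus the mean of the other 3 (x axis), for 4 role groups of the cilium genes, 7 lists outside the symbol rule and all genes tested (rows, with the number of genes), 1 marker per tumor. Tumor 5 lies rightmost for IFT-A (0.27) and the other transition zone genes (0.28), tumor 2 for centrosomal Cep genes (0.17), and tumor 1 leftmost for S, G2 and M phase (-0.42).

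Markers of neurons and of dividing cells set tumor 1 apart, and those of glia did so in part. All 14 genes of the granule cell progenitor lineage on the table were above the floor in every tumor. In tumor 1, 11 were higher (43.7% of all genes were) and 3 lower, and the list did not move as one. Pax6 (difference 1.26) and Cntn2 (1.12) differed most there, both higher. Atoh1 went the other way, at 9.92 in tumor 1, against 10.54, 10.81 and 10.90 in tumors 2, 4 and 5. The summed linear signal of 15 mature neuron genes was 8373 in tumor 1, against 2398, 3368 and 3240 in tumors 2, 4 and 5, that of 9 Purkinje and inhibitory neuron genes 4207, against 337, 619 and 335, that of 11 oligodendrocyte genes 6737, against 2460, 3409 and 2615, and that of 21 genes of dividing cells 13646, against 18199, 18700 and 18851. Mbp gave the largest part of the oligodendrocyte sum in tumor 1, and 3 of the 7 tested genes of that list were lowest in tumor 1: Sox10 at 5.67, Olig1 at 10.08 and Olig2 at 7.49. Of 13 tested astrocyte and Bergmann glia genes, 11 were higher in tumor 1 (median 0.59), and Gdf10 (difference 1.84, adjusted p = 0.00813) and Gjb6 (1.62, adjusted p = 0.0472) passed there. Microglia and macrophage genes summed to 7870 in tumor 4 and lay between 4586 and 5835 elsewhere. The part of these cells in the values of Kif3c, Bbs4 and the Cep genes was not tested.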

How the data were processed

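Values were the series' deposited table of log2 signals, 1 column per tumor. Per the submitters' processing notes, the authors used MAS5, which summarizes and scales each array on its own. The sources used here give neither its version nor its scaling target. The low end of MAS5 signals is noisy on the log2 scale. The table held 29304 probe sets, of which 61 Affymetrix controls were left out, and no detection calls. Gene names came from the platform annotation, and 647 probe sets with several symbols were not used.

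Signals were raised to a floor, taken at the 40th percentile of each array and then the median of the 4 (5.12 on the log2 scale, 34.8 linear), and probe sets whose mean signal reached 5.87, the median of the means, were kept. The brightest probe set stood for its gene, which gave 8498 genes. Each tumor was compared with the other 3 by lmFit and eBayes with an intensity trend (limma 3.58.1, R 4.3.3), checked first on simulated data. Differences are lone tumor minus mean of the other 3. With 4 arrays, the number of arrays limits precision.

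The members, lists and rules were chosen with earlier results of these data known. Named were, in each comparison, the 6 members with the largest difference, the widest and narrowest of each role, genes whose probe sets disagree, and those under the floor. The X-box genes, further members of each role and the 4 genes with 1 tumor apart were added after their values were seen. From the other lists, the 2 largest differences in the comparison given, or genes chosen after seeing their values, were named. Alternatives changed the floor, the mean filter, the scaling, the probe sets and the variance model, and left out each tumor.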

Additional observations from a re-analysis of the deposited data

Results flagged for a closer look

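In 4 of the 64 cilium genes above the floor in every tumor, 1 tumor lay apart from 3 that were close together (a gap beyond the 95% critical value of Dixon's test). Chance gives about 1 such gene in 20, which is near 4 of 64. The share among all genes was not counted. Ift81 read 8.63 in tumor 5, with the others at 8.32 to 8.36. Ift74 read 7.99 in tumor 1, with the others at 8.17 to 8.19. Cep44 read 7.46 in tumor 1, with the others at 7.57 to 7.60. Cep76, which limits centriole reduplication, read 7.19 in tumor 1, with the others at 7.02 to 7.05. None passed the limma test, with an adjusted p of 0.957, 0.770, 0.889 and 0.854 for the tumor apart.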

How the results depend on the processing

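No cilium gene passed in any tumor under any of the 10 other settings or with any tumor left out (Cep170 reached an adjusted p under 0.05 in 2 of these, at less than 2-fold). All 24 named differences kept their sign wherever the gene was tested with 1 value per gene. Single probe sets are not covered by this: the dimmer one of Kif3c read 6.35 in tumor 2, against 6.96, 5.70 and 6.22 in tumors 1, 4 and 5. Without the mean filter, Cep126, Cep295, Cep112 and Mks1 had an adjusted p under 0.05 at less than 2-fold, with at least 2 of the other tumors set to the floor. At the level of probe sets, 1 pair of tumors differed by 2-fold (Kif3c, tumors 1 and 4). Centring each array on its median moved the median of all genes in tumor 1 to -0.14 and that of the cilium genes to -0.20, and 70.7% of all genes, 38 of 52 cilium genes and 16 of 22 Cep genes were then lower there. With the filter raised to the 75th percentile, 21 cilium genes were tested and their median in tumor 4 was 0.044. In tumor 1, 16 of these were lower (6 of 9 Cep genes), where 61.7% of all genes were, and in tumor 5, 15 were higher, where 60.4% of all genes were. There, 7 of 9 Cep genes were higher in tumor 2, and 7 of 9 IFT-A and IFT-B, 6 of 8 other IFT and 3 of 4 other transition zone genes were higher in tumor 5. With no mean filter 53 of 75 cilium genes were counted as lower in tumor 1 (64.5% of all genes were). Both figures are too high, because genes set to the floor in every tumor were counted as lower through rounding. Among the cilium genes these are Bbs10, Cep135, Cep250, Tctn1 and Tctn2.

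With each tumor left out in turn, the counts ranged from 33 to 35 cilium genes lower in tumor 1, 32 to 40 higher in tumor 5, 15 to 16 Cep genes lower in tumor 1, 16 to 18 Cep genes higher in tumor 2, 11 to 14 IFT-A and IFT-B genes, 13 to 14 other IFT genes and 8 to 10 other transition zone genes higher in tumor 5. The medians of the cilium genes kept their sign, at -0.13 to -0.11 in tumor 1, 0.037 to 0.10 in tumor 2, -0.099 to -0.021 in tumor 4 and 0.029 to 0.13 in tumor 5. The counts of genes on one side were chosen after seeing the data. No paired analysis was possible because the labels give a single group.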
